A study of Homo sapiens with 12 samples.

Results

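The comparison described here set 2 human pancreatic cancer cell lines with acquired gemcitabine resistance, BxPC-3-GR and CFPAC-1-GR, against each other. It used 6 of the 12 libraries of the series, 3 per resistant line, and 12330 of the 58302 genes of the table, those with a mean of at least 1 FPKM over the 6 libraries. FPKM is the number of sequenced fragments scaled to transcript length and to the mapped total of the library. No measured difference between the lines entered the choice of genes. The GR lines were derived from BxPC-3 and CFPAC-1 cells kept under gemcitabine whose dose was raised over time, and total RNA was sequenced from cells near confluence. According to the sample records, all cells were grown in RPMI 1640 medium with fetal bovine serum and antibiotics, whereas the study's methods name a different medium, IMDM, for CFPAC-1. The exposure schedules also differed between the lines. The sample records give the drug sensitivity of both GR lines as resistant, and their morphology as mesenchymal for BxPC-3-GR and epithelial for CFPAC-1-GR. Both parental lines are recorded as sensitive and epithelial. Each GR line is a single derivation, so line of origin, medium, exposure history and resistance cannot be told apart in this comparison alone. The records do not say whether the 3 replicates of a line were separate cultures, so the p-values measure only the spread between these libraries.

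Gemcitabine is a deoxycytidine analog that enters cells through nucleoside transporters and becomes active after phosphorylation, first by deoxycytidine kinase (DCK). Its diphosphate inhibits ribonucleotide reductase, whose large subunit is RRM1 and whose small subunit is RRM2, and its triphosphate blocks DNA synthesis. Pancreatic ductal carcinoma cells vary between a classical state with gut-like secretory genes and a basal or squamous state with stratified keratins and the transcription factor TP63. Resistant cultures from separate parents can therefore differ both in what the parents already differed in and in what changed during exposure.

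The deposited table held no read counts. From the steps between low FPKM values, the implied depth was 21.6 to 25.1 M fragments for the BxPC-3-GR libraries and 15.6 to 21.9 M for the CFPAC-1-GR libraries. Between 11530 and 11660 genes reached 1 FPKM in the BxPC-3-GR libraries, against 12407 to 12598 in the CFPAC-1-GR libraries. The 10 most abundant genes took 34.1% to 36.2% of the summed FPKM in BxPC-3-GR and 23.2% to 24.6% in CFPAC-1-GR. Spearman correlation across genes was 0.964 to 0.977 between libraries of a line and 0.743 to 0.759 between the lines. The 10 pancreatic duct markers had a summed level of 915 to 993 FPKM in BxPC-3-GR and 1169 to 1362 FPKM in CFPAC-1-GR, although in each line 1 of the 10 averaged under 0.1 FPKM. Markers of acinar, endocrine and endothelial cells summed to under 1 FPKM in every library, and the summed fibroblast markers did not exceed 4.14 FPKM. Of 6 leukocyte markers, 3 were under 0.1 FPKM in all libraries, including PTPRC, the pan-leukocyte CD45 antigen, which was listed at 0. The leukocyte sum was 1.65 to 2.02 FPKM in BxPC-3-GR and 15.1 to 18.2 FPKM in CFPAC-1-GR through the macrophage-associated genes CD68, CD14 and LYZ, whose part in other differences was not tested.

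The mesenchymal label of BxPC-3-GR records morphology, and the RNA of mesenchymal marker genes was set beside it. The study described lost cell contacts and increased migration and invasion relative to parental BxPC-3, none of which RNA levels measure. Vimentin (VIM), the intermediate filament of mesenchymal cells, was 0.686, 0.861 and 0.891 FPKM in the 3 BxPC-3-GR libraries and 51.2, 68.7 and 53.8 FPKM in the 3 CFPAC-1-GR libraries. N-cadherin (CDH2) was 4.86, 4.97 and 6.35 FPKM in BxPC-3-GR and 33.3, 25.2 and 26.8 FPKM in CFPAC-1-GR. Both genes were lower in every library of the line labelled mesenchymal, with log2 differences of -5.01 (SE 0.121) and -2.20 (SE 0.134). E-cadherin (CDH1), which joins epithelial cells, was 48.2, 55.2 and 32.5 FPKM in BxPC-3-GR and 33.6, 38.8 and 40.1 FPKM in CFPAC-1-GR, and these ranges overlapped. The parent of BxPC-3-GR, recorded as epithelial, averaged 6.59 ± 0.937 FPKM for VIM and 1.99 ± 0.386 FPKM for CDH2 (SD, n = 3), so that against this parent VIM was at a lower and CDH2 at a higher level in BxPC-3-GR. Other mesenchymal genes are described below, and the lines are called by their names.

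Across all genes, most transcripts had similar levels in the resistant lines, and a smaller part differed by a large margin. A difference is written as BxPC-3-GR minus CFPAC-1-GR on the log2(FPKM + 1) scale, which understates the change of low genes, and a gene was called when its limma adjusted p was under 0.05 and the difference exceeded 1. In total, 2111 genes were called (17.1% of those tested), 838 of them higher in BxPC-3-GR (6.80%) and 1273 higher in CFPAC-1-GR (10.3%). The share of calls that were higher in BxPC-3-GR was 39.7%, but it was 51.5% after median-of-ratios scaling and 48.3% after upper-quartile scaling, and the median difference of all genes moved from -0.087 to 0.054 and 0.013. Of the called genes, 2107 had libraries that did not overlap between the lines, beside 8758 of all genes tested (71.0%). The median size of a called difference was 1.51. At least 3 was reached by 174 genes, at least 4 by 62 and at least 5 by 20, of which 4 were higher in BxPC-3-GR.

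Similar level was defined by the 95% confidence interval of the difference rather than by a missed threshold. The interval lay within 1 of 0 for 8719 genes (70.7%) and within 0.5 of 0 for 3912 genes (31.7%). A further 1500 genes (12.2%) were neither called nor bounded in this way. The Spearman correlation of the group means across genes was 0.763 between the resistant lines and 0.617 between the parental lines, as a description, since genes are not independent replicates. The genes were filtered on the resistant libraries only. As described below, FPKM of the CFPAC-1 libraries rose with GC content relative to the mean of all 12 libraries, unlike that of the others. The correlations are therefore not directly comparable.

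**Figure D1:**
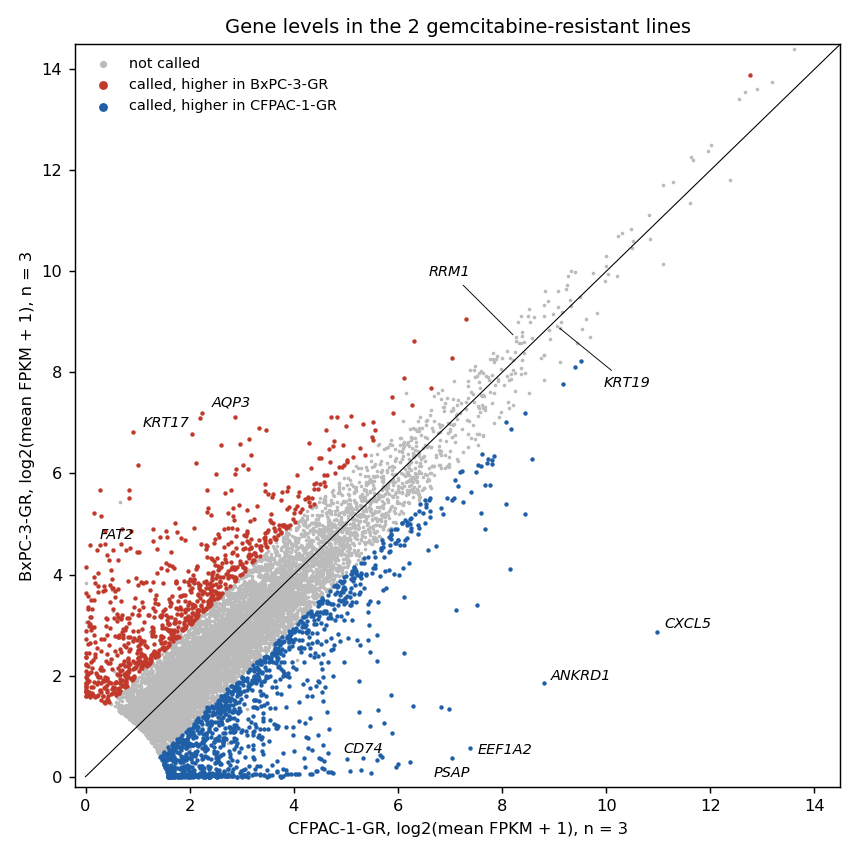
Mean FPKM of each tested gene in BxPC-3-GR (vertical axis) against CFPAC-1-GR (horizontal axis), both as log2(FPKM + 1) over 3 libraries. Colored points are the 838 genes called higher in BxPC-3-GR and the 1273 called higher in CFPAC-1-GR, and gray points are the rest along the diagonal.

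The genes with the largest excess in BxPC-3-GR were mostly those of stratified squamous epithelium. Keratin 17 (KRT17, chr17:41619437-41624842 in GRCh38), a basal keratin, was 108, 114 and 115 FPKM in BxPC-3-GR and 0.686, 1.22 and 0.754 FPKM in CFPAC-1-GR, with a log2 difference of 5.91 (SE 0.113, adjusted p = 1.56e-07). The basal keratin KRT5 was 48.4, 53.9 and 47.1 FPKM in BxPC-3-GR and 0.683, 1.07 and 0.634 FPKM in CFPAC-1-GR. KRT6A, a keratin of activated and squamous epithelium, was 113, 109 and 105 FPKM in BxPC-3-GR and 3.28, 3.36 and 2.71 FPKM in CFPAC-1-GR. No library of CFPAC-1-GR came near the BxPC-3-GR range of these keratins. In the same direction, the calcium-binding protein S100A2 was 133, 142 and 133 FPKM against 3.10, 4.64 and 2.99 FPKM, with a log2 difference of 4.92 (SE 0.138, adjusted p = 5.85e-07). Cystatin A (CSTA), a protease inhibitor of cornified epithelium, was 32.5, 35.3 and 37.1 FPKM in BxPC-3-GR and 0.146, 0.223 and 0.327 FPKM in CFPAC-1-GR. The desmosomal plaque protein PKP1 averaged 28.03 ± 6.81 FPKM in BxPC-3-GR and 0.290 ± 0.0485 FPKM (SD, n = 3) in CFPAC-1-GR.

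Genes outside the squamous group were also among the 12 largest. AQP3, a channel for water and glycerol, was 139.6, 142 and 153 FPKM in BxPC-3-GR and 3.94, 3.91 and 3.39 FPKM in CFPAC-1-GR (log2 difference 4.94, SE 0.0758, adjusted p = 1.02e-07). HAS2, which synthesizes hyaluronan, was 23.1, 22.3 and 18.9 FPKM against 0.164, 0.181 and 0.138 FPKM. The groups of both genes were far apart. The actin-bundling protein LCP1 averaged 44.7 ± 0.437 FPKM and 0.773 ± 0.148 FPKM, and the WNT-related regulator TCIM averaged 23.1 ± 2.73 FPKM and 0.208 ± 0.0971 FPKM (SD, n = 3). UGT1A10, a glucuronosyltransferase, averaged 50.1 and 0.211 FPKM, but the UGT1A genes share exons, so the split of reads between them is uncertain.

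The largest excess in CFPAC-1-GR belonged to CXCL5 (chr4:73995642-73998779), a chemokine that attracts neutrophils. CXCL5 was 7.31, 5.98 and 5.52 FPKM in BxPC-3-GR and 2289, 1923 and 1858 FPKM in CFPAC-1-GR, a log2 difference of -8.12 (SE 0.121, adjusted p = 1.02e-07) and a 323-fold difference of the group means. ANKRD1, a target of the YAP coactivator, was 3.05, 2.41 and 2.34 FPKM in BxPC-3-GR and 354, 488 and 496 FPKM in CFPAC-1-GR. The translation factor EEF1A2 was 0.693, 0.346 and 0.402 FPKM against 123, 194 and 184 FPKM. These 3 genes were thus at a few FPKM or less in BxPC-3-GR and above 100 FPKM in every CFPAC-1-GR library. Prosaposin (PSAP, chr10:71816298-71851375), the precursor of lysosomal lipid-degrading cofactors, was 0.342, 0.229 and 0.332 FPKM in BxPC-3-GR and 119, 140.3 and 129.5 FPKM in CFPAC-1-GR (log2 difference -6.65, SE 0.0813, adjusted p = 9.79e-08).

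Further genes of this direction covered surface antigens, matrix and patterning. The kallikrein protease KLK6 was 0.256, 0.247 and 0.181 FPKM in BxPC-3-GR and 69.0, 78.0 and 75.9 FPKM in CFPAC-1-GR. CD74, the invariant chain of MHC class II, was 0.251, 0.179 and 0.143 FPKM against 55.8, 72.5 and 60.7 FPKM, and the basement membrane collagen COL4A2 was 0.158, 0.123 and 0.156 FPKM against 56.1, 61.6 and 67.0 FPKM. HOXB9, a homeobox factor of body patterning, was 1.74, 1.79 and 1.26 FPKM against 104, 117 and 118 FPKM. In all 4 genes the lowest CFPAC-1-GR library was far above the highest BxPC-3-GR library. RARRES3, a retinoid-induced phospholipase, NNMT, which methylates nicotinamide, the water channel AQP5 and endothelin 1 (EDN1) completed the 12 largest, with log2 differences of -5.60, -5.31, -5.26 and -5.23.

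**Figure D2:**
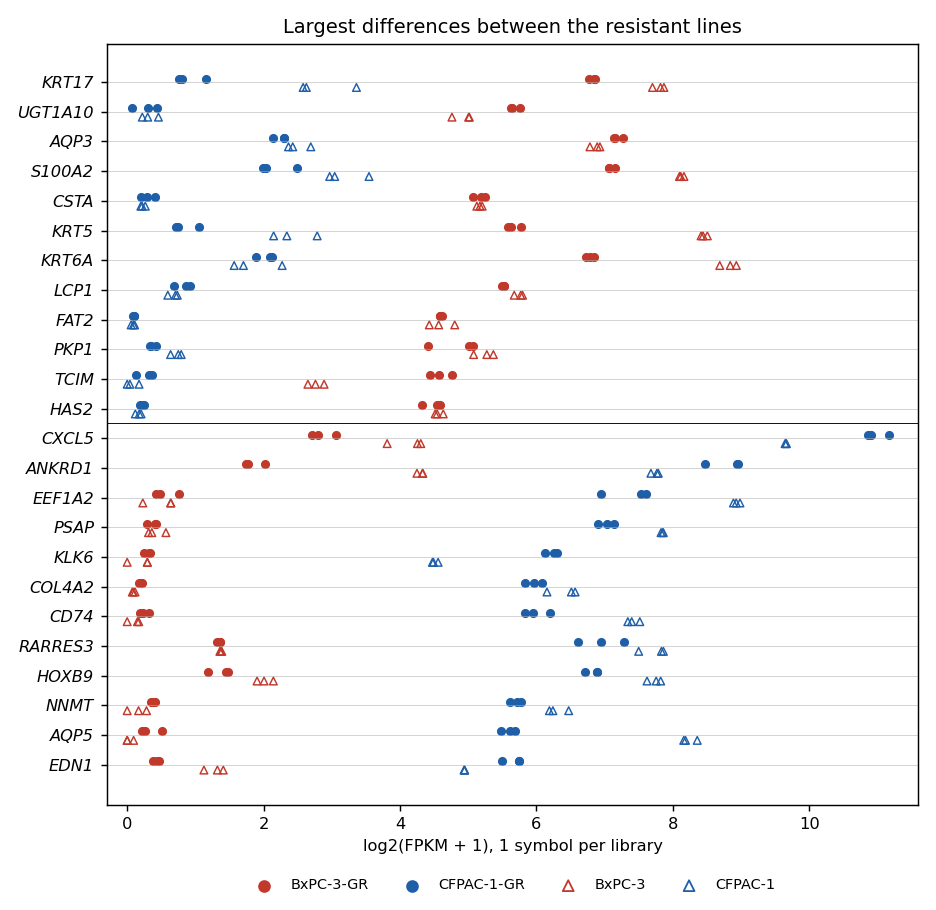
FPKM per library, on a logarithmic axis, of the 12 genes with the largest difference in each direction in the 3 BxPC-3-GR and 3 CFPAC-1-GR libraries (filled circles). Open triangles are the libraries of the parental lines. Each symbol is a library, and in no gene do the circles of the resistant lines overlap. CXCL5 reaches 2289 FPKM in CFPAC-1-GR.

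The markers of epithelial and mesenchymal state did not move as blocks. Of 26 tested mesenchymal genes, 4 were called higher in BxPC-3-GR and 14 were higher in CFPAC-1-GR, with a median difference of -1.43, beside 17.1% called and a median of -0.087 over all genes. For this and every list below, the shares over all tested genes were 6.80% called higher in BxPC-3-GR and 10.3% higher in CFPAC-1-GR. VIM, the matrix-associated genes FSTL1 (-4.31) and CTGF (-4.15), tropomyosin TPM1 (-2.79), the repressor SNAI1 (-2.48), CDH2 and the receptor kinase AXL (-2.03) were higher in CFPAC-1-GR. TWIST2, a further repressor of epithelial genes, was listed at 0 in all 3 BxPC-3-GR libraries and at 2.42, 2.80 and 3.63 FPKM in CFPAC-1-GR. Genes higher in BxPC-3-GR included the repressor SNAI2, the collagen cross-linking enzyme LOX and S100A4. SNAI2 was 23.4, 22.7 and 22.9 FPKM in BxPC-3-GR and 3.65, 3.97 and 4.25 FPKM in CFPAC-1-GR (log2 difference 2.28, SE 0.0668, adjusted p = 7e-07). The repressors of the SNAI family thus differed in opposite directions.

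Of 30 epithelial adhesion genes, 5 were higher in BxPC-3-GR and 2 were higher in CFPAC-1-GR, and 21 had intervals within 1 (median 0.11). Desmoplakin (DSP, 1.83), desmocollin 2 (DSC2, 1.15), P-cadherin (CDH3, 1.07), the splicing regulator ESRP1 (1.07) and the transcription factor KLF5 (1.80) were higher in BxPC-3-GR. The tight junction genes CLDN3 (-4.68) and CGN (-1.02) were higher in CFPAC-1-GR. E-cadherin differed by 0.24 with an interval of -0.22 to 0.70. For the tight junction gene CLDN4, a single library decided the mean: the BxPC-3-GR libraries read 1.42, 23.4 and 1.52 FPKM and the CFPAC-1-GR libraries 0.394, 0.104 and 0.799 FPKM, and it was not called. Among all 9 tested claudins, 1 (CLDN1, 2.33) was higher in BxPC-3-GR and 5 were higher in CFPAC-1-GR.

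More squamous genes were higher in BxPC-3-GR than in CFPAC-1-GR, and the list held members of both directions. Of 31 tested basal and squamous genes, 15 were higher in BxPC-3-GR and 8 were higher in CFPAC-1-GR, with a median difference of 0.97. TP63, the master regulator of squamous epithelium, was 13.6, 12.6 and 13.8 FPKM in BxPC-3-GR and 0.107, 0.164 and 0.119 FPKM in CFPAC-1-GR (log2 difference 3.66, SE 0.0639, adjusted p = 1.19e-07). The hemidesmosome collagen COL17A1 (4.26), the desmosomal cadherins DSC3 (3.93) and DSG3 (3.21), the mucosal keratin KRT13 (3.53) and the cornified envelope proteins SPRR1A (3.08) and SPRR1B (2.48) had the same direction. Of 11 S100 genes, S100A2, S100P (3.70), S100A14 (1.67) and S100A4 (1.07) were higher in BxPC-3-GR. The 8 squamous members higher in CFPAC-1-GR were the kallikreins KLK5, KLK6 and KLK10, the keratins KRT4, KRT80 and KRT81, the transglutaminase TGM2 and the myeloid-type calcium-binding protein S100A9.

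The classical and gastrointestinal genes were divided. Of 19 tested, 5 were higher in BxPC-3-GR and 9 were higher in CFPAC-1-GR (median -0.38). The gastric protease CTSE (1.69), the endodermal factor GATA6 (1.57) and the adhesion antigen CEACAM5 (1.38) were higher in BxPC-3-GR. The related antigen CEACAM6 (-4.13), the ductal factor SOX9 (-2.43), and DMBT1 (-1.64), a mucosal defence protein, were higher in CFPAC-1-GR. The simple epithelial keratins KRT8 (-1.53) and KRT18 (-1.46) were also higher in CFPAC-1-GR, whereas their duct partner KRT19 was 465, 484 and 500.3 FPKM in BxPC-3-GR and 501, 574 and 519 FPKM in CFPAC-1-GR, with an interval of -0.31 to 0.043. Of 6 tested mucins, MUC5AC (1.10) and MUC16 (1.22) were higher in BxPC-3-GR, but MUC5AC was at 0.92 and not called after the GC content and length correction. MUC16 was 12.7, 11.2 and 11.503 FPKM in BxPC-3-GR and 6.16, 2.98 and 4.76 FPKM in CFPAC-1-GR, and its difference fell to 0.99, under the threshold, without the lowest CFPAC-1-GR library.

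**Figure D3:**
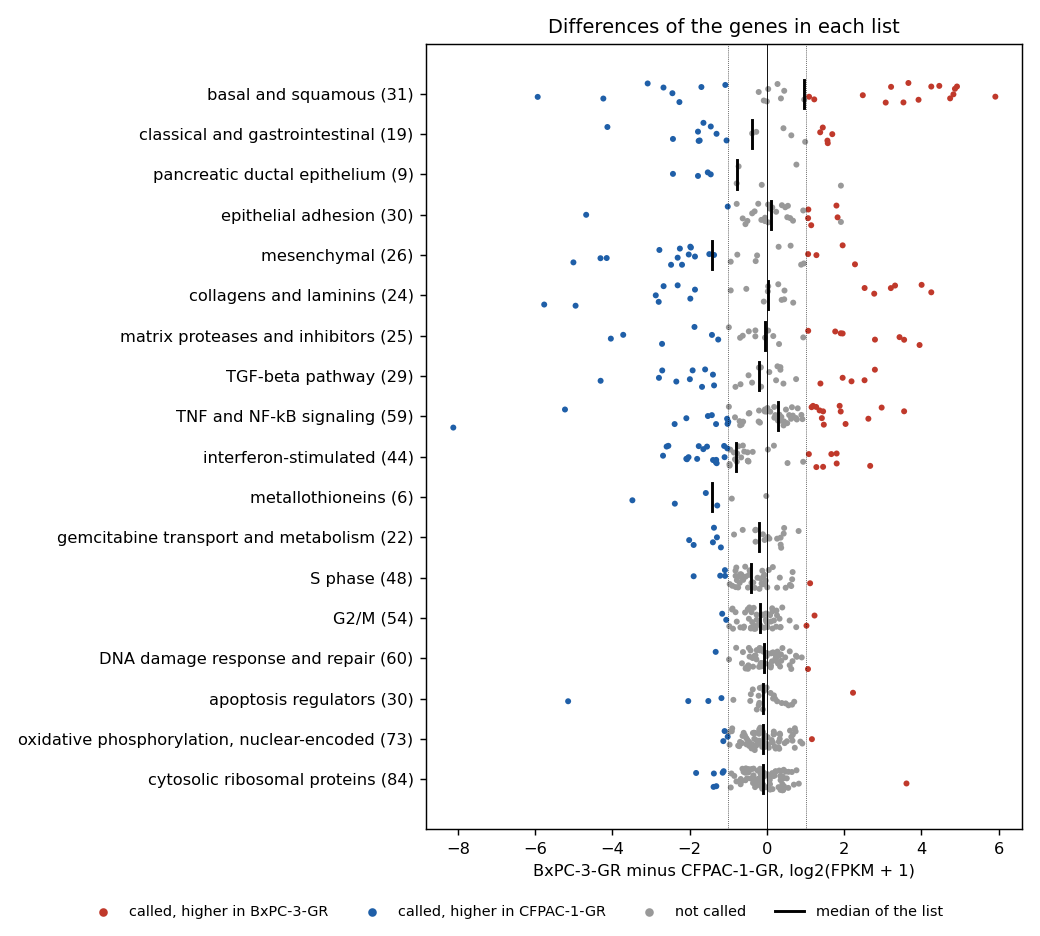
Log2 difference (BxPC-3-GR minus CFPAC-1-GR, horizontal axis) of the tested members of the gene lists, a row per list, with a point per gene and a mark at the list median. Basal and squamous genes reach 5.91 with a median of 0.97, and mesenchymal genes lie mostly to the left with a median of -1.43.

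Matrix genes were called in both directions. Of 24 tested collagens and laminins, 6 were higher in BxPC-3-GR and 8 were higher in CFPAC-1-GR. The type IV collagen pair COL4A1 (-4.96) and COL4A2 (-5.77) was higher in CFPAC-1-GR, while the type IV chains COL4A5 (2.53) and COL4A6 (2.78), the fibril-associated COL12A1 (4.00) and the anchoring fibril collagen COL7A1 (3.32) were higher in BxPC-3-GR. The laminin chains LAMA3 (-0.23 to 0.29) and LAMB3 (-0.33 to 0.16), parts of epithelial basement membranes, had intervals within 1. Of 12 integrins, 8 had intervals within 1, ITGA2 (1.31), ITGAV (1.18) and ITGB5 (1.19) were higher in BxPC-3-GR, and the leukocyte integrin chain ITGB2 (-1.55) was higher in CFPAC-1-GR.

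Matrix proteases also differed in both directions. Of 25 tested matrix proteases and inhibitors, 8 were higher in BxPC-3-GR and 6 were higher in CFPAC-1-GR. The membrane-bound protease MMP14 was 95.3, 97.3 and 112 FPKM in BxPC-3-GR and 6.58, 9.31 and 7.503 FPKM in CFPAC-1-GR (log2 difference 3.55, SE 0.128). MMP7, an epithelial protease, was 14.504, 15.9 and 18.3 FPKM in BxPC-3-GR and 295, 287 and 264 FPKM in CFPAC-1-GR (log2 difference -4.04, SE 0.0964). The groups of both proteases were separate and opposite in order. The collagenase MMP1 (3.95), the stromelysin MMP10 (2.80) and the inhibitor TIMP3 (3.43) were higher in BxPC-3-GR, and MMP24 (-3.72), urokinase (PLAU, -1.88) and TIMP2 (-1.42) were higher in CFPAC-1-GR.

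Genes of inflammatory and growth factor signaling differed in both directions. In the TNF and NF-kB list of 59 tested genes, 13 were higher in BxPC-3-GR and 10 were higher in CFPAC-1-GR. The neutrophil chemokine CXCL8 was 144, 147 and 129 FPKM in BxPC-3-GR and 31.9, 32.5 and 35.7 FPKM in CFPAC-1-GR, opposite in direction to CXCL5. CXCL1 was 594, 565 and 514 FPKM in BxPC-3-GR and 385, 325 and 275 FPKM in CFPAC-1-GR and was not called (log2 difference 0.77). The cytokines IL1A (1.91), IL1B (1.88) and CCL20 (2.63) and the NF-kB subunit NFKB1 (1.47) were higher in BxPC-3-GR, whereas the receptors CD40 (-2.39) and TNFRSF1B (-1.53) were higher in CFPAC-1-GR. In the TGF-beta list of 29 genes, 5 were higher in BxPC-3-GR and 10 were higher in CFPAC-1-GR. The ligands were divided, with BMP2 (2.79) and TGFB3 (2.19) higher in BxPC-3-GR and TGFB2 (-2.80), INHBA (-1.68) and INHBB (-4.31) higher in CFPAC-1-GR. None of 9 tested ERBB receptors and ligands was called by limma, and 5 of them had intervals within 1, but 2 were called higher in BxPC-3-GR under median-of-ratios scaling and 1 under upper-quartile scaling.

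More interferon-stimulated genes were higher in CFPAC-1-GR than in BxPC-3-GR. Of 44 tested, 7 were higher in BxPC-3-GR and 17 were higher in CFPAC-1-GR, with a median difference of -0.80. Called were 54.5% of the list, beside 17.1% of all tested genes. The antiviral effectors IFITM2 (-2.69), MX1 (-2.07), OAS3 (-2.03) and IFIT1 (-1.77) and the factor IRF7 (-2.09) were higher in CFPAC-1-GR. The 7 of the opposite direction included MX2 (1.67), OASL (1.80) and 3 TRIM ubiquitin ligases, TRIM5, TRIM21 and TRIM22, which lie near RRM1 on chromosome 11. The MHC class I heavy chains HLA-B (-2.33) and HLA-E (-2.26) were higher in CFPAC-1-GR, and the peptide-trimming enzyme ERAP2 (3.19) was higher in BxPC-3-GR. HLA transcripts are alike in sequence and polymorphic, so their levels against the reference are uncertain.

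The called genes of gemcitabine handling were all higher in CFPAC-1-GR. Of 22 tested members, none was called higher in BxPC-3-GR by limma, 6 were higher in CFPAC-1-GR and 13 had intervals within 1 (median -0.20), or 59.1% beside 70.7% of all tested genes. The 6 calls were 27.3% of the list, beside 10.3% of all tested genes called in that direction. With a pseudocount of 0.1, 1 member was higher in BxPC-3-GR. The uptake transporter SLC29A1 was 7.14, 6.58 and 5.42 FPKM in BxPC-3-GR and 17.8, 19.3 and 18.04 FPKM in CFPAC-1-GR (log2 difference -1.40, SE 0.0995, adjusted p = 3.13e-05). RRM2 was 4.86, 3.49 and 4.57 FPKM in BxPC-3-GR and 19.8, 15.97 and 20.5 FPKM in CFPAC-1-GR (log2 difference -1.90, SE 0.135, adjusted p = 3.14e-05). Both genes were lower in every BxPC-3-GR library. The inactivating enzyme cytidine deaminase (CDA, -1.30), the nucleotidase NT5C2 (-1.19), the nucleotide kinase NME1 (-2.01) and the triphosphohydrolase SAMHD1 (-1.37) had the same direction. DCK was 6.90, 6.35 and 6.41 FPKM in BxPC-3-GR and 8.54, 7.88 and 8.40 FPKM in CFPAC-1-GR, with an interval of -0.45 to -0.14. Among 6 tested ABC efflux pumps, ABCC3 (-2.27) alone was called. Of 29 genes for other drugs, the tubulins TUBB2A (-2.08), TUBB2B (-1.46) and TUBB6 (-1.05) were higher in CFPAC-1-GR, and the irinotecan-conjugating UGT1A1 and UGT1A6, which share exons, were higher in BxPC-3-GR.

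Of the DNA damage genes 90.0% and of the S phase genes 70.8% had intervals within 1, beside 70.7% of all tested genes. Of 60 tested DNA damage genes, 54 had intervals within 1 and 2 were called, WEE1 (1.06), a kinase that delays mitosis, and XRCC2 (-1.33), a homologous recombination factor. Of 54 G2/M genes, 43 had intervals within 1, 2 were higher in BxPC-3-GR and 2 were higher in CFPAC-1-GR. The proliferation antigen MKI67 was 74.0, 66.4 and 64.1 FPKM in BxPC-3-GR and 92.6, 70.3 and 75.1 FPKM in CFPAC-1-GR, and these ranges overlapped. Of 48 S phase genes, 34 had intervals within 1, GINS1 (1.12), a replication fork component, was higher in BxPC-3-GR, and RRM2, CDC6 (-1.21), CCNE1 (-1.09) and TIPIN (-1.09) were higher in CFPAC-1-GR, although under median-of-ratios or upper-quartile scaling 2 S phase genes were higher in that line. The S phase median was -0.43, beside -0.087 over all genes, and 11 of the 48 differences were above 0. Under these scalings the S phase median was -0.26 and -0.30, beside 0.054 and 0.013 over all genes. Of 19 tested driver genes of pancreatic cancer, the tumor suppressors CDKN2A (-4.33) and CDKN2B (-2.55), their neighbour MTAP (-1.69) and the kinase MAP2K4 (-1.34) were higher in CFPAC-1-GR, and GATA6 was higher in BxPC-3-GR. Among 30 apoptosis regulators, 23 had intervals within 1 and 16.7% were called, close to the 17.1% of all tested genes. BMF (2.23), which promotes cell death, was higher in BxPC-3-GR, and the protective BCL2L1 (-1.52), BCL2A1 (-2.04) and CFLAR (-1.18) and the hypoxia-induced BNIP3 (-5.15) were higher in CFPAC-1-GR. MCL1, a further survival factor, was 30.2, 30.1 and 33.3 FPKM in BxPC-3-GR and 34.3, 31.9 and 32.4 FPKM in CFPAC-1-GR, with an interval of -0.24 to 0.091.

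Of the cytosolic ribosomal protein genes 8.33% and of the nuclear-encoded oxidative phosphorylation genes 5.48% were called, beside 17.1% of all tested genes. Of 84 tested ribosomal protein genes, 70 had intervals within 1, RPS28 (3.61) was higher in BxPC-3-GR and 6 were higher in CFPAC-1-GR. Ribosomal proteins have many processed copies, so individual members are uncertain. Of 73 nuclear genes of oxidative phosphorylation, 61 had intervals within 1 and 4 were called. Of 26 reference genes, 21 had intervals within 1 and the transferrin receptor TFRC (-1.08) was called. The medians of the ribosomal, oxidative phosphorylation, DNA damage, apoptosis and reference lists were all close to 0 and changed sign under the other library scalings. Further, 6 of 43 proteasome subunits were called, all higher in CFPAC-1-GR, beside 10.3% of all tested genes called in this direction, with a median of -0.48, whereas under median-of-ratios scaling 4 were higher in CFPAC-1-GR and 1 was higher in BxPC-3-GR. Of 6 metallothioneins, which bind metal ions, 4 were higher in CFPAC-1-GR, among them MT2A (-2.39). Of 82 zinc finger genes of chromosome 19, 4 were called (4.88%), all higher in BxPC-3-GR, and the median was 0.38. This share was below the 6.80% of all tested genes called in that direction.

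The most abundant genes with intervals within 0.5 gave examples of shared levels. The endoplasmic reticulum chaperone HSPA5 was 374, 374 and 419.6 FPKM in BxPC-3-GR and 350.2, 351 and 318 FPKM in CFPAC-1-GR (interval 0.0099 to 0.38). The cytosolic chaperone HSP90AB1 was 469, 479 and 453 FPKM against 544, 571 and 533 FPKM (interval -0.38 to -0.089). Calreticulin (CALR) averaged 234 ± 3.34 FPKM and 241 ± 12.9 FPKM (SD, n = 3). A similar level did not mean equal libraries, since the HSP90AB1 ranges did not overlap. KRT19, the mitochondrial transcripts MT-ND2, MT-ND3 and MT-ND6, the respiratory subunits COX8A (-0.13) and NDUFS5 (-0.17), the actin-sequestering TMSB4X (0.12), the disulfide isomerase PDIA4 (-0.15) and HNRNPA1P48 completed this set. Not all mitochondrial transcripts were shared. Of 37 tested genes of the mitochondrial genome, 10 (27.0%) were called higher in CFPAC-1-GR and 1 (2.70%) higher in BxPC-3-GR, beside 10.3% and 6.80% of all tested genes. HNRNPA1P48 is a pseudogene copy of HNRNPA1, so its reads are uncertain.

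Metabolic and stress genes were called in small groups. In the NRF2 list of 32 antioxidant genes, 7 were higher in BxPC-3-GR, among them the cystine transporter SLC7A11 (2.11) and the reductases AKR1C1 (1.78) and AKR1B10 (1.74), and 3 were higher in CFPAC-1-GR. In the glycolysis and hypoxia list of 32 genes, 4 were called in each direction. Carbonic anhydrase 9 (CA9), a hypoxia-induced enzyme, was 20.2, 21.7 and 24.6 FPKM in BxPC-3-GR and 0.769, 0.893 and 0.768 FPKM in CFPAC-1-GR, whereas the hypoxia-induced BNIP3, the glucose transporter SLC2A3 (-2.32) and the enzymes LDHA (-1.43) and ENO1 (-1.30) were higher in CFPAC-1-GR. Of 31 lipid synthesis genes, 2 were higher in BxPC-3-GR and 6 were higher in CFPAC-1-GR, led by the desaturase FADS2 (-3.51). Of 13 aldehyde dehydrogenases, ALDH3A1 (3.39) was higher in BxPC-3-GR and ALDH1A1 (-3.37) higher in CFPAC-1-GR. Among 28 stress response genes 3 were called, and among 11 calcium entry genes ORAI3 (1.02) and ITPR2 (1.82) were higher in BxPC-3-GR.

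The study singled out 6 genes on these samples, MUC16 described above among them, so their levels are not independent evidence of a direction. RRM1 (chr11:4094707-4138876) was 424, 419 and 396 FPKM in BxPC-3-GR and 302, 311 and 304 FPKM in CFPAC-1-GR. STIM1, the calcium sensor of the endoplasmic reticulum, was 49.9, 53.2 and 41.5 FPKM in BxPC-3-GR and 25.1, 26.3 and 34.1 FPKM in CFPAC-1-GR. In both genes every BxPC-3-GR library was above every CFPAC-1-GR library, but the differences, 0.43 (interval 0.29 to 0.58, adjusted p = 0.000698) and 0.74 (interval 0.40 to 1.09, adjusted p = 0.00345), were under 1. TRIM21, an antibody-binding ubiquitin ligase, was 161, 158 and 167 FPKM in BxPC-3-GR and 72.4, 81.4 and 74.1 FPKM in CFPAC-1-GR, and was called (log2 difference 1.08, SE 0.0688, adjusted p = 1.83e-05). PGM2L1 was 4.98, 5.18 and 5.06 FPKM against 6.01, 3.67 and 4.44 FPKM, and ANKRD36C was 3.47, 3.32 and 3.51 FPKM against 6.80, 3.15 and 5.07 FPKM. In the last pair the CFPAC-1-GR libraries spread across the BxPC-3-GR range and neither gene was called (adjusted p = 0.528 and 0.15).

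The neighbours of RRM1 on chromosome 11 differed much more than RRM1 itself. The boundaries of this stretch were set after the values were seen. From RHOG to TPP1 (chr11:3826978-6619461) lay 21 tested protein-coding genes, of which 18 were called higher in BxPC-3-GR and none higher in CFPAC-1-GR by limma, with a median difference of 2.67. The 3 that were not called were RRM1, STIM1 and the readthrough TRIM6-TRIM34 (0.69). At the near edge, RHOG, a small GTPase, was 117, 121 and 109 FPKM in BxPC-3-GR and 22.8, 24.2 and 23.3 FPKM in CFPAC-1-GR. ILK, an integrin-linked kinase, was 118, 118 and 118 FPKM against 8.70, 9.16 and 9.18 FPKM. FAM160A2, a trafficking adaptor, was 72.6, 73.1 and 72.0 FPKM against 3.30, 3.46 and 3.27 FPKM. In all 3 genes the libraries of the lines were far apart. At the far edge, the lysosomal peptidase TPP1 was 51.3, 47.6 and 49.8 FPKM against 8.99, 10.54 and 10.2 FPKM, while MRPL17, the next tested gene, was 3.68, 3.50 and 5.205 FPKM in BxPC-3-GR and 10.98, 10.8 and 10.46 FPKM in CFPAC-1-GR. The direction therefore turned between neighbours.

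Outside this stretch the pattern was different. Protein-coding genes were taken up to 4 Mb on each side of the start of RRM1, so the flanks of the stretch were unequal. Of the 50 tested genes before RHOG, 3 were higher in BxPC-3-GR and 11 were higher in CFPAC-1-GR (median -0.50). Of the 4 genes after TPP1, 3 were higher in CFPAC-1-GR (median -1.26). The parental lines had a median difference of -0.20 over the 21 genes, and in the interaction of line and resistance described below 19 of the 21 were called toward BxPC-3-GR, whereas RRM1 was called in the opposite direction (-1.30) and TRIM6-TRIM34 was not called. These interaction calls are those of the values as deposited. After the GC content and length correction those of RRM1, STIM1 and TRIM21 were not kept. Those of FAM160A2, ARFIP2, TRIM34, TAF10 and CAVIN3 were kept. Relative to its own parent, BxPC-3-GR was higher by more than 1 in 21 of 21 genes and CFPAC-1-GR in 7 of 21. Both counts use the values as deposited. The GC content trend of the CFPAC-1 parent, described below, enters the count of 7, so the counts are not directly comparable. Copy number was not measured in this series.

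**Figure D4:**
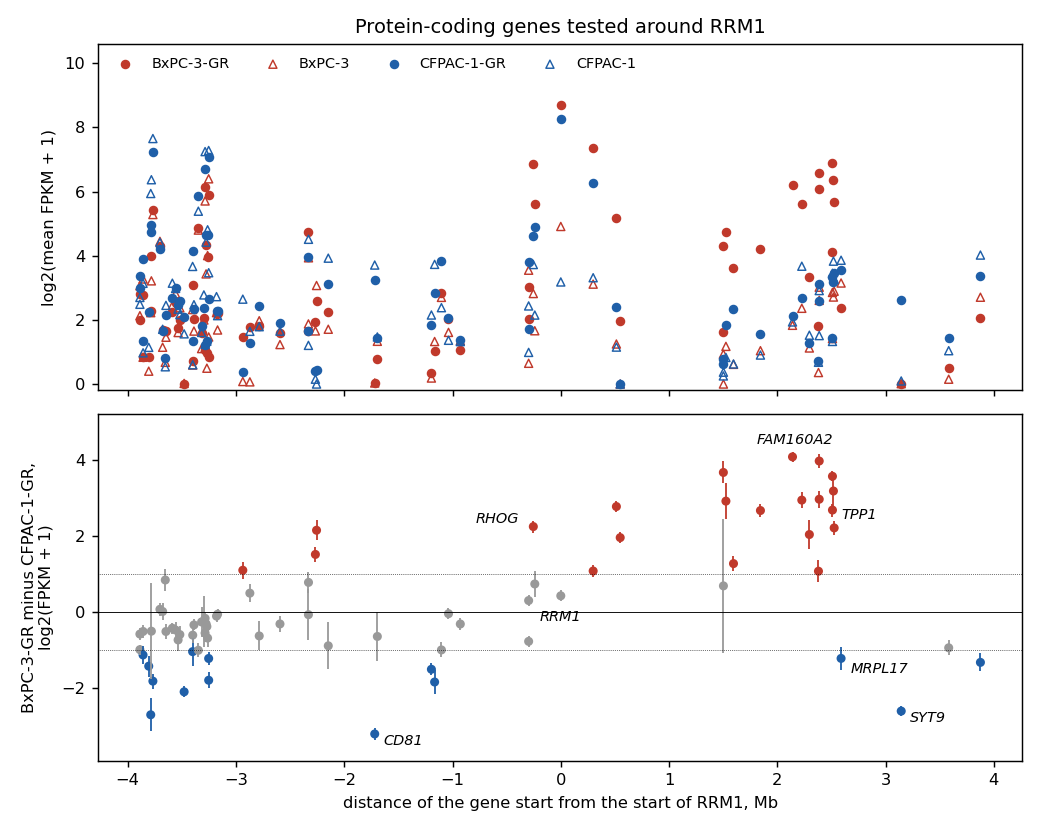
Lower panel, log2 difference (BxPC-3-GR minus CFPAC-1-GR, vertical axis) of 75 tested protein-coding genes by distance in Mb from the start of RRM1 (horizontal axis). The upper panel gives the mean levels of the same genes in the resistant and parental lines. In the lower panel, genes from RHOG to TPP1 lie above 0 with a median of 2.67, and the neighbours on both sides lie mostly below 0.

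Overlapping windows of 25 neighbouring tested genes of all types placed this stretch among the whole genome. The median difference of 11723 such windows had 5th and 95th percentiles of -0.63 and 0.44, and the highest window was the one from RHOG to TPP1 at 2.25. The lowest lay on chromosome 17 from CBX1 to EIF4EP2 at -2.09. Chromosome 17 had 143 genes higher in CFPAC-1-GR (19.8% of those tested on it) and 25 higher in BxPC-3-GR (3.46%). On chromosome 18, 32 genes (19.8%) were higher in BxPC-3-GR. Over the tested protein-coding genes, the longest unbroken series of calls in CFPAC-1-GR held 14 genes on chromosome 17. It contained the HOXB cluster and ran from SKAP1 to IGF2BP1 (chr17:48133440-49055650). Its median was -2.57 between the resistant lines and -2.43 between the parents.

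Some neighbouring genes were nearly absent from a single line. A series was at least 3 protein-coding genes in a row among the tested ones, with untested genes between them passed over. Each was at 0.5 FPKM or less in all 3 libraries of a line and at a mean of 2 FPKM or more in the other. Such series occurred 6 times (22 genes) for BxPC-3-GR and 2 times (11 genes) for CFPAC-1-GR. A gene nearly absent from a line was tested only through its level in the other, so the filter helped to form these series. This search was chosen after the values were seen. On chromosome 9 (chr9:21329671-22009363) it held KLHL9, the methylthioadenosine phosphorylase MTAP, and the cell cycle inhibitors CDKN2A and CDKN2B. CDKN2A was 0.0835, 0.0916 and 0.0697 FPKM in BxPC-3-GR and 19.998, 20.5 and 21.6 FPKM in CFPAC-1-GR. The flanking genes FOCAD, at 3.79 and 4.62 FPKM, and TUSC1, at 3.20 and 4.01 FPKM, were found in both lines. On chromosome 10 (chr10:71747559-72235860) it held VSIR, PSAP, CHST3, ASCC1 and ANAPC16, between SLC29A3 (4.99 and 4.89 FPKM) and DDIT4 (66.1 and 41.6 FPKM). The median difference over these 5 genes was -3.77, and it was -4.31 between the parental lines.

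The other series of this kind were shorter or uncertain. Kallikreins KLK5, KLK6, KLK8 and KLK10 lay within 77 kb on chromosome 19 and did not exceed a mean of 0.248 FPKM in BxPC-3-GR. USP47, DKK3 and MICAL2, and separately TSPAN18, TP53I11 and SYT13, formed series on chromosome 11, and CLIC5, ENPP4 and ENPP5 on chromosome 6. Low in CFPAC-1-GR were 7 UGT1A genes with shared exons on chromosome 2 and the cancer-testis genes CSAG1, CSAG2, CSAG3 and MAGEA12, members of multi-copy families on the X chromosome.

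A stricter criterion of separation took genes at 0.1 FPKM or less in every library of a line and at 10 FPKM or more in every library of the other. BxPC-3-GR had 2 such genes and CFPAC-1-GR had 14. FAT2, a giant cadherin of squamous epithelium, was 23.5, 22.9 and 23.03 FPKM in BxPC-3-GR and 0.0589, 0.0717 and 0.0715 FPKM in CFPAC-1-GR (log2 difference 4.50, SE 0.0540, adjusted p = 9.79e-08). GAGE2A, a cancer-testis antigen, was 16.9, 15.6 and 17.8 FPKM in BxPC-3-GR and was listed at 0 in all 3 CFPAC-1-GR libraries, with uncertain counting because of its near-identical copies. In the opposite direction, PIK3AP1, an adaptor for phosphoinositide 3-kinase, was 0.0533, 0.0372 and 0.0918 FPKM in BxPC-3-GR and 25.2, 25.3 and 25.7 FPKM in CFPAC-1-GR. The RNA-binding protein BICC1 was 0.0811, 0.0405 and 0.0646 FPKM against 24.3, 22.5 and 26.04 FPKM. CDKN2A, CHST3, VSIR and ENPP4 of the low series above were also in this group. The rest were BCAT1, which transaminates branched-chain amino acids, the phosphate transporter SLC34A2, the kinase RIPK4, the fibrinogen chain FGB, the histone variant H2AFY2, the cystatin CST6, the secreted IGFBP7 and the proteoglycan GPC4.

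The start-site sequences of these genes are shown because the CG content of promoters differed between the genes that separated the lines and the genes of shared level. RefSeq promoters on GRCh38.p14, from 250 bases before to 50 after the start, were matched for 8085 of the tested protein-coding genes outside the Y chromosome and for 10 of the 16 genes above. Each is printed 5′ to 3′ on the gene's strand with every CG in capitals, namely FAT2 at chr5:151591282-151591581 (minus strand, 7 CG), GAGE2A at chrX:49589246-49589545 (plus strand, 13 CG), PIK3AP1 at chr10:96720465-96720764 (minus strand, 34 CG) and CDKN2A at chr9:21995275-21995574 (minus strand, 28 CG). The RefSeq start of FAT2 lies upstream of the gene model used for the coordinates (chr5:151504093-151568944), so its window may not be the start used in these cells, and that of CDKN2A belongs to the outermost start of a gene with more than a single promoter.
FAT2: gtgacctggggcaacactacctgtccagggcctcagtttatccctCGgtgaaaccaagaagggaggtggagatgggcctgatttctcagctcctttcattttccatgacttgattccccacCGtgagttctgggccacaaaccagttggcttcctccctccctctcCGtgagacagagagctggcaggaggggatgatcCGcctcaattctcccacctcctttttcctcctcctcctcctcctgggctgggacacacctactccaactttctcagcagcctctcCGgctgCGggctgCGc
GAGE2A: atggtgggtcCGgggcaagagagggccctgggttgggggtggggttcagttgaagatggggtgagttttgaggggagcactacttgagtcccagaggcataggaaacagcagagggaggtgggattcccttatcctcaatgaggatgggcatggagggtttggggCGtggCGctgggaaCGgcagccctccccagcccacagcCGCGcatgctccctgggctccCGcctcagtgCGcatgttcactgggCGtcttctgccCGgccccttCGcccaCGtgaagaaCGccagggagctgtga
PIK3AP1: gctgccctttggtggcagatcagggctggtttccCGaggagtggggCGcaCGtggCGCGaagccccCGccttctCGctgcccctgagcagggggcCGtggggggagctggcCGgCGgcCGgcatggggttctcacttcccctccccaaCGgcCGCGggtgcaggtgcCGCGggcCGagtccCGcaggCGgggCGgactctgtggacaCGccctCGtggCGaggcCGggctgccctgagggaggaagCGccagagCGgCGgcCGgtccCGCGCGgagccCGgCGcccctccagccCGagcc
CDKN2A: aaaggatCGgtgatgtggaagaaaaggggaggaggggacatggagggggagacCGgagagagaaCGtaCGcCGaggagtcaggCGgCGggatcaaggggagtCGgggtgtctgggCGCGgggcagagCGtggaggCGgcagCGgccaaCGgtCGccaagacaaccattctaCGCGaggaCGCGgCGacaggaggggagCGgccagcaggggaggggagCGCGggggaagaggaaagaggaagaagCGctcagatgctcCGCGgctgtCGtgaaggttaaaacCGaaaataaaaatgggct

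The observed-to-expected CpG ratio was 0.287 for FAT2 and 0.444 for GAGE2A, the genes present in BxPC-3-GR. It was 0.768 for PIK3AP1 and 1.13 for CDKN2A, the genes present in CFPAC-1-GR. A ratio of at least 0.6 was found for 85.8% of all tested promoters, for 89.9% of the 2684 promoters of genes with intervals within 0.5 and for 70.2% of 533 promoters of genes called higher in BxPC-3-GR. The share was 73.4% of 774 promoters for the opposite direction. Among differences of 3 or more the shares were 46.9% of 49 and 58.2% of 55. The separating genes of both directions thus had fewer CpG-rich promoters than the shared genes.

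Short motifs were counted on both strands of the same windows. The TATA box TATAAA was in 5.02% of all promoters, against 8.63% of those with higher BxPC-3-GR levels and 7.11% of those with higher CFPAC-1-GR levels. The AP-1 motif TGANTCA was in 4.37%, 6.75% and 6.20%. The E-box CACCTG, the element bound by SNAI and ZEB repressors, was in 1467 of all 8085 promoters, 123 of 533 and 147 of 774, and of the 4 sequences above in that of PIK3AP1. A match describes letters only and identifies no bound site.

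The parental lines served as a second pair that shares no library with the resistant pair. Between BxPC-3 and CFPAC-1, 5133 of the same genes were called (41.6%), 2942 higher in BxPC-3 (23.9%) and 2191 higher in CFPAC-1 (17.8%). These counts rest on CFPAC-1 libraries whose levels, relative to the mean of all 12 libraries, rose with GC content by 0.614 to 0.626 log2 per 10% GC. In the other 9 libraries the slopes relative to this mean were -0.263 to -0.153. A rise in some libraries against a common mean forces a fall in others, so no absolute trend was measured. With a correction for GC content and length the parental calls were 3236. The resistant difference had a Spearman correlation of 0.0189 with GC content across genes, and the parental difference one of -0.618.

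Most differences between the resistant lines had a counterpart between the parents. Of the 838 genes higher in BxPC-3-GR, 480 (57.3%) were called in the same direction between the parents, 35 (4.18%) in the opposite direction and 323 (38.5%) not at all. Of the 1273 genes higher in CFPAC-1-GR, the numbers were 738 (58.0%), 49 (3.85%) and 486 (38.2%). After the correction 499 of 835 genes (59.8%) and 691 of 1245 genes (55.5%) were called in the same direction. Conversely, 3831 of the 5133 parental calls (74.6%) were not called between the resistant lines, and for 3214 (62.6%) the interval there lay within 1, beside 17.1% called and 70.7% within 1 over all tested genes. With the correction these shares were 62.2% and 50.4% of 3236. The largest genes of both directions illustrate the counterpart, as KRT17 averaged 222 FPKM in BxPC-3 and 6.48 FPKM in CFPAC-1, and CXCL5 16.6 FPKM in BxPC-3 and 806 FPKM in CFPAC-1.

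Whether the resistant difference was larger or smaller than the parental one was tested by the interaction of line and resistance over all 12 libraries. Calls of either direction numbered 4626 (37.5%), and 2417 after the correction. Among the 323 and 486 genes without a parental call, 194 and 282 passed this test in the direction of the resistant difference. After the correction these numbers were 156 of 321 and 267 of 535. The genes named next were picked among those that passed as deposited and had a small parental difference, so their interaction call was fixed by this choice. FAM160A2 averaged 2.56 FPKM in BxPC-3 and 2.82 FPKM in CFPAC-1, so its difference of 4.08 appeared with an interaction of 4.19 (adjusted p = 6.07e-10). Its chromosome 11 neighbours ARFIP2 and TRIM34, the uroplakin UPK3B, the membrane protein IGSF1 and the protease MMP10 were the next largest, with resistant differences of 2.80 to 3.35. In the other direction were TNFSF14, a TNF-family ligand, the deubiquitinase USP47, the RNA genes AC010735.1 and LINC00342, the synaptotagmin SYT9 and the protein C receptor PROCR, with resistant differences of -3.12 to -2.57. SYT9 was 0.0111, 0 and 0.0169 FPKM in BxPC-3-GR and 5.09, 5.13 and 5.07 FPKM in CFPAC-1-GR.

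The genes of reversed order were fewer. CA9 differed by 3.67 between the resistant lines and by -2.12 between the parents. S100A9 was 42.4, 38.8 and 42.2 FPKM in BxPC-3-GR and 258, 298 and 253 FPKM in CFPAC-1-GR, while the parents averaged 155 FPKM in BxPC-3 and 3.14 FPKM in CFPAC-1. The ferroxidase ceruloplasmin (CP) was 23.6, 25.1 and 31.8 FPKM in BxPC-3-GR and 4.93, 4.56 and 5.13 FPKM in CFPAC-1-GR, a difference of 2.24 against -1.81 between the parents. These 3 genes ranked the lines in opposite order before and after exposure. TAF10, a subunit of the general transcription machinery, and CAVIN3, a caveola protein, lie in the stretch beside RRM1 and had the same kind of reversal, with resistant differences of 3.19 and 2.95. For RRM1 the parents averaged 29.1 FPKM in BxPC-3 and 8.07 FPKM in CFPAC-1, and the parental difference of 1.73 exceeded the resistant one, with an interaction of -1.30. The interaction call of RRM1 was not kept after the GC content and length correction.

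**Figure D5:**
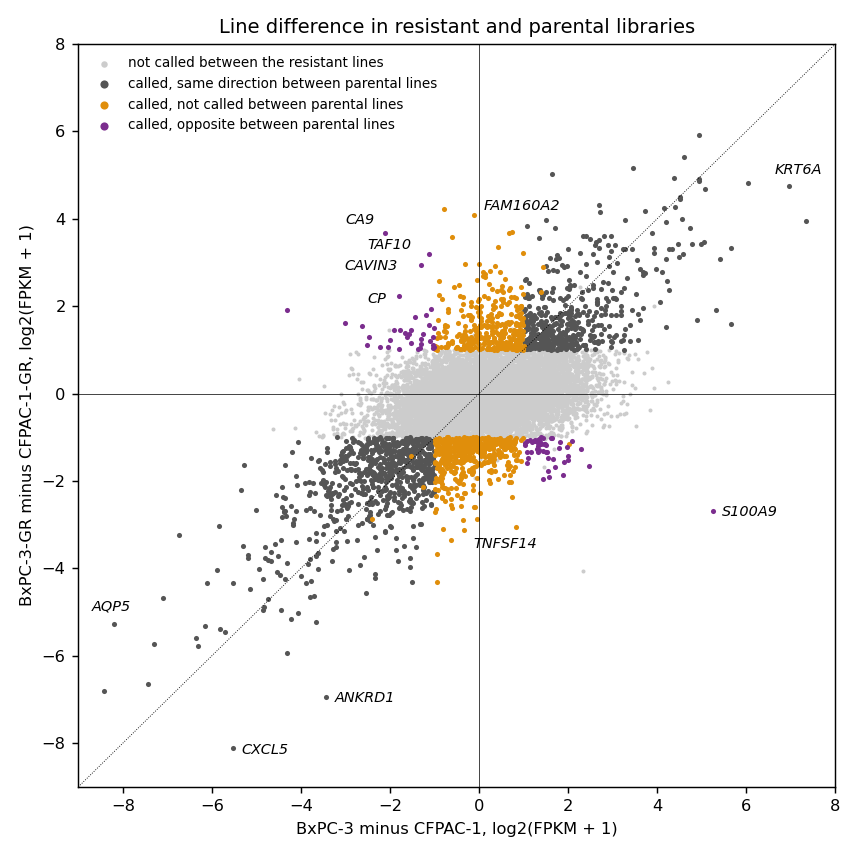
Difference between the resistant lines (BxPC-3-GR minus CFPAC-1-GR, vertical axis) against that between the parental lines (BxPC-3 minus CFPAC-1, horizontal axis), both log2(FPKM + 1), for the tested genes. Most called genes lie in the quadrants of equal sign, FAM160A2 lies near 0 on the horizontal axis at 4.08, and S100A9 lies in the quadrant of opposite sign.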

How the data were processed

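RNA-seq libraries of 4 cell lines with 3 replicates each were compared, and the 2 GR lines were the subject. The FPKM values were made and deposited by the authors as 1 table that covers 58302 genes in 12 libraries. The authors name DESeq2 for their differential test. No read counts were used here, so values were tested on a log scale. The submitters' processing notes list Trimmomatic 0.27, FastQC 0.10.1 and TopHat2 2.0.8 and name both hg19 and GRCh38; coordinates given here are those of GENCODE release 29 on GRCh38, matched by gene ID, and 56647 of 58039 annotated genes had the same coordinates in the deposited table. FPKM is scaled to the mapped total, so a few very abundant genes lower the rest.

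Genes whose FPKM averaged at least 1 over the 6 GR libraries were kept, log2(FPKM + 1) was taken, and limma 3.58.1 (R 4.3.3) was fitted to the 6 libraries with empirical Bayes variances and Benjamini-Hochberg adjustment. A call needed an adjusted p under 0.05 and an absolute difference over 1. The same genes were fitted between the parents, and the interaction of line and resistance over all 12 libraries. The smallest p of an exact permutation test of 3 against 3 is 0.1, so none is given. Scripts were tested on simulated data.

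The members and gene lists were chosen with earlier results of these data known. Genes named singly were the 12 largest calls in each direction, the 12 most abundant genes with intervals within 0.5, the largest calls without a parental call (6 in each direction) or with an opposite one, the 6 genes singled out by the study, and genes at 0.1 FPKM or less against 10 FPKM or more. Those without a parental call were picked among interaction calls with an absolute parental difference under 0.5. Members of the lists were named as well, and lists were recomputed as counts under the pseudocount, both scalings and the correction. Alternatives were a pseudocount of 0.1, no filter, median-of-ratios and upper-quartile scaling, protein-coding genes only, all 12 libraries in 1 fit, a test against an absolute difference of 1, a GC content and length correction (spline with 5 degrees of freedom), a replicate block and leaving out each library. Y-linked genes and XIST entered the fits and are not shown, and some further genes are not reported here. Plots and summaries were made with Python 3.11.15, pandas 2.3.3 and matplotlib 3.10.9.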

Additional observations from a re-analysis of the deposited data

Results flagged for a closer look

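The difference between the GR lines was not the same as that between the parental lines in 34 of the named genes, by limma's interaction of line and resistance, with adjusted p of at most 0.000277 as deposited and 0.000598 after the GC content and length correction, and with the same sign in both. Values in brackets are the resistant minus the parental log2 difference, each of them BxPC-3 side minus CFPAC-1 side.

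The GC content and length correction moved 11 of the 34 interactions by over 1.5 times, to KRT5 (-1.94), TCIM (2.45), CXCL5 (-1.72), KLK6 (-2.49), AQP5 (1.63), UPK3B (1.68), USP47 (-1.65), CAVIN3 (2.83), BICC1 (-1.23), ENPP4 (-1.45) and CST6 (-3.64).

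Among the genes with the largest resistant differences, the excess of BxPC-3-GR over CFPAC-1-GR was smaller than that between the parents for the keratins KRT5 (-1.20) and KRT6A (-2.23) and larger for TCIM (1.62). The excess of CFPAC-1-GR was larger than that between the parents for CXCL5 (-2.59), ANKRD1 (-3.505), KLK6 (-1.63) and EDN1 (-1.57), and smaller for AQP5 (2.94). The mitochondrial transcripts MT-ND2 (-2.24) and MT-ND6 (-3.81) were of shared level between the GR lines and higher in BxPC-3 than in CFPAC-1.

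Genes named for the absence of a parental call were picked among interaction calls, so their call as deposited was fixed by this choice. Toward BxPC-3-GR they were FAM160A2 (4.19), UPK3B (2.93), IGSF1 (2.98), ARFIP2 (3.28), TRIM34 (2.56) and MMP10 (2.56). Toward CFPAC-1-GR they were TNFSF14 (-2.78), USP47 (-2.535), AC010735.1 (-2.82), LINC00342 (-2.498), SYT9 (-2.51) and PROCR (-2.16). Genes named for an opposite parental call were CA9 (5.79), TAF10 (4.31), CAVIN3 (4.26) and CP (4.04) on the BxPC-3-GR side and S100A9 (-7.92) and AC006058.1 (-3.40) on the CFPAC-1-GR side, and S100A9 had the largest interaction of the 34. A large interaction follows from this choice as well.

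The mucin MUC16 (1.63) and the cancer-testis gene GAGE2A (1.44) moved toward BxPC-3-GR. Of the genes at 0.1 FPKM or less in BxPC-3-GR, BICC1 (-2.04), SLC34A2 (-1.12), ENPP4 (-2.43) and CST6 (-2.21) had a larger CFPAC-1 excess between the GR lines than between the parents.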

How the results depend on the processing

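No gene called between the GR lines was called in the opposite direction under any of the 16 alternatives, and of the 75 genes examined singly those that were called kept their direction, whereas the small uncalled differences of CALR, KRT19, COX8A, PDIA4 and NDUFS5 (all of shared level) and PGM2L1 changed sign under at least 1 alternative, CALR from -0.042 to 0.089 with the GC content and length correction. With the test against an absolute difference of 1, 1265 genes were called in place of 2111, 494 higher in BxPC-3-GR and 771 higher in CFPAC-1-GR, and TRIM21 and MUC16 were no longer called; this test is stricter by construction. Leaving out each library in turn gave 2072 to 2170 called genes, 799 to 884 higher in BxPC-3-GR and 1200 to 1351 higher in CFPAC-1-GR, and the difference of MUC16 fell to 0.99. The count of shared levels depended on the genes entered, with 26181 intervals within 1 in place of 8719 and 17489 within 0.5 in place of 3912 when low genes were not filtered, and on the pseudocount, with 2599 within 0.5 at 0.1. Leaving out each library gave 8385 to 8544 intervals within 1 and 3313 to 3735 within 0.5. With the GC content and length correction, with or without the replicate block, parental calls were 3236 in place of 5133, 1866 in place of 2942 higher in BxPC-3 and 1370 in place of 2191 higher in CFPAC-1, and the correction alone gave 2417 interaction calls in place of 4626. Under the median-of-ratios scaling 1882 of the called genes kept their call (89.2%). Deviations of GR libraries with equal replicate numbers correlated by 0.0454, 0.0681 and 0.0212 between the lines, and those with unequal numbers by -0.0620 to 0.0194. Values this small cannot decide whether the replicate numbers pair the samples. A fit with the replicate number as a block called 2118 genes, 842 higher in BxPC-3-GR and 1276 higher in CFPAC-1-GR. The deposited FPKM values carry no counts, so low genes cannot be given a counting interval.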
